A study of Mus musculus with 2 samples.

Results

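The cells described here are Prrx1-positive, Foxf1-negative lateral plate cells of the mouse tail end, called members below. They were taken from droplet single-cell RNA libraries of caudal tissues of wild type C57BL/6J embryos at embryonic day 8.5, of which there are 2, replicate 1 and replicate 2, made from pooled tissue with a 10x Genomics kit that reads transcripts from their 5′ ends. The values are counts of unique molecular identifiers (UMIs, 1 per captured transcript). Kept barcodes carried 2000 UMIs or more, 1000 genes or more, and mitochondrial genes made up 0.3 to 10% of their UMIs. Members were chosen by their own counts of these genes: a kept barcode was a member with at least 2 Prrx1 UMIs, no Foxf1 UMI, at most 1 Tbx4 UMI, at most 1 UMI of the endothelial pair Cdh5 and Pecam1, and at most 1 UMI of the somite pair Tcf15 and Meox1. This gave 340 members of 19550 kept barcodes, 97 of 11228 in replicate 1 and 243 of 8322 in replicate 2. Both libraries are labelled wild type, and all comparisons are between cell classes inside each library.

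The lateral plate mesoderm is known to divide into a somatic layer, next to the surface ectoderm, and a splanchnic layer, next to the gut endoderm. The somatic layer gives rise to the body wall and the limb buds, and the homeobox gene Prrx1 is a classical marker of it and of limb bud mesenchyme. The splanchnic layer gives rise to the mesenchyme of the gut and to the heart, is patterned by Hedgehog signals from the endoderm, and depends on the forkhead factor Foxf1. Members were set against 3 classes with mirrored limits on the same genes, and against all other kept barcodes. Splanchnic-gate cells had at least 2 Foxf1 UMIs and no Prrx1 (1307 and 949 cells in replicates 1 and 2). Co-detected cells had at least 2 Prrx1 UMIs and at least 1 Foxf1 UMI (650 and 492). Somite-gate cells had at least 2 UMIs of Tcf15 and Meox1 and neither Prrx1 nor Foxf1 (922 and 769). All other kept barcodes numbered 11131 and 8079.

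The depth over all barcodes was 295866003 UMIs in 30449 barcodes for replicate 1 and 150964773 UMIs in 18245 for replicate 2, and members had medians of 19916 and 14822 UMIs. Levels are in CPM, the share of a gene in all UMIs of the class in that library, scaled to a fixed total, with replicate 1 given first. Scrublet called 8 of the 97 and 19 of the 243 members doublets, and the rule did not remove them. The libraries shared 114 kept barcodes, none of them among members. Whether each library had its own pool of embryos is not stated, so the p-values below measure only how far class differences vary between these libraries, which may be technical. Values after ± are standard errors (SE) of the log2 fold change in CPM, and a gene was called at an adjusted p under 0.05. Against all other kept barcodes, and in the 2 splits of members described below, the spread was estimated over all genes together. The p-values and SE there do not show how far a single gene varied between libraries.

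Members were rare, and rarer in replicate 1. They made up 0.864% of kept barcodes there (exact 95% interval 0.701 to 1.05) and 2.92% in replicate 2 (2.57 to 3.30). The intervals do not overlap, but they cover counting error only. With 1 library on each side, the difference was not tested. With counts thinned to 5000 UMIs per cell the shares were 0.598% and 1.98%. Most members sat close to the lower limit on Prrx1, with 2 Prrx1 UMIs in 42 and 96 members, 3 in 23 and 60, and 6 or more in 6 and 32. Prrx1 itself, which chose the cells, stood at 153 and 228 CPM in members, against 130 and 187 CPM in co-detected cells and 18.5 and 25.6 CPM in all other kept barcodes.

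**Figure D1:**
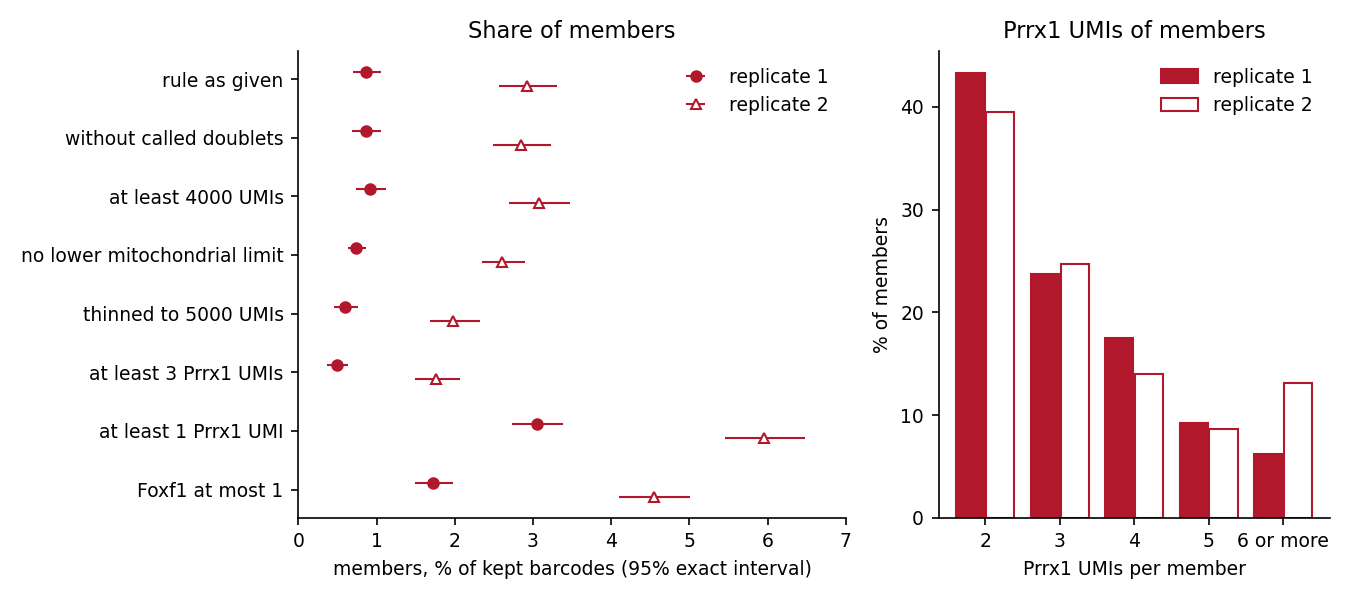
Left, members as a percent of kept barcodes in each library (filled circles replicate 1, open triangles replicate 2, bars exact 95% intervals) under the rule and under 7 changes to it. Right, percent of members by their number of Prrx1 UMIs. Replicate 2 lies above replicate 1 in every setting drawn, and 2 Prrx1 UMIs is the commonest count in both libraries.

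The Foxf1 limit removed far more cells than any other. Among cells that met all the remaining limits, 650 of 747 (87.0%, interval 84.4 to 89.3) in replicate 1 and 492 of 735 (66.9%, 63.4 to 70.3) in replicate 2 carried at least 1 Foxf1 UMI. Exactly 1 Foxf1 UMI was found in 96 and 135 of these cells, and among all other kept barcodes 36.6% and 34.6% carried Foxf1. Just outside the limits, cells with exactly 1 Foxf1 UMI had 422 and 263 CPM of the transcription factor Twist1, cells with exactly 1 Prrx1 UMI had 117 and 113 CPM, and members with exactly 2 Prrx1 UMIs had 380 and 244 CPM, as a description with no test. Members with 3 or more Prrx1 UMIs had 475 and 366 CPM of Twist1. Lhx1, a LIM homeobox gene of early lateral and intermediate mesoderm, ran the same way at the lower limit, with 40.4 and 49.9 CPM in members of exactly 2 Prrx1 UMIs and 23.0 and 20.6 CPM in cells with exactly 1.

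Sequence is shown for 3 genes because this kit captures the 5′ ends of transcripts, next to these stretches: the gene that chose the cells and a pair of somatic or lateral plate transcription factors that were higher in members. Each is the 250 bases before the annotated start on the gene's strand, from RefSeq on GRCm38.p6, with 7 of 11 genes looked up matched in that table. Capitals mark TAATTA, the core recognised by many homeodomains, or CANNTG, the E-box recognised by bHLH proteins, both of which read the same on either strand. TAATTA occurs in 4.84% and CANNTG in 66.2% of 32851 stretches of the same length. Prrx1 lies on the minus strand at chr1:163313651-163313900, Hand2 on the plus strand at chr8:57320733-57320982 and Twist1 on the plus strand at chr12:33957421-33957670.
Prrx1: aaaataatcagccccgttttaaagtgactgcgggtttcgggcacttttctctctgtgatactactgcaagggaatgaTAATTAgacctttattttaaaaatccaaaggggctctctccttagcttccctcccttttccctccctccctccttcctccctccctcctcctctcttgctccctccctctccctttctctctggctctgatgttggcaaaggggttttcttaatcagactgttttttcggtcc
Hand2: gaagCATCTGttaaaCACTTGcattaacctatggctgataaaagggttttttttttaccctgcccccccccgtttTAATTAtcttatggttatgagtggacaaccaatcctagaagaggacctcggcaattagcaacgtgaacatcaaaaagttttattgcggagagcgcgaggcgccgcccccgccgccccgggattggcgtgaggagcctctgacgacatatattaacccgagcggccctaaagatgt
Twist1: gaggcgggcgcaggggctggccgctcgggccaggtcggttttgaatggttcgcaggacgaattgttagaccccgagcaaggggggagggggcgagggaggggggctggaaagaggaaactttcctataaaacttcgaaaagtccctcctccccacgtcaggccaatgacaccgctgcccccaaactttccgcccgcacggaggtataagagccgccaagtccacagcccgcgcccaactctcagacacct
The Prrx1 stretch holds 1 TAATTA and no CANNTG, the Hand2 stretch holds 1 TAATTA and 2 CANNTG, and the Twist1 stretch holds neither. Of the other matched genes, Irx3, Lhx1, Prrx2 and Scube1 hold no TAATTA, and Scube1 holds 1 CANNTG. A match is a description of the letters, not a bound site.

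Against all other kept barcodes, members had more of 11 of 15 somatic lateral plate and limb-field factors, and less of 11 of 11 presomitic, 8 of 12 somite, 9 of 12 neural tube and 13 of 15 endothelial markers. The neural tube markers summed to 16.4 and 17.9 CPM in members, against 94.5 and 108 CPM in all others, and the endothelial markers to 215 and 142 CPM, against 338 and 325 CPM. The somite markers summed to 157 and 39.0 CPM, against 203 and 169 CPM, and most of the members' sum in replicate 1 came from Aldh1a2. Twist1, a bHLH factor of limb and head mesenchyme, had 436 and 322 CPM in members, against 97.3 and 70.6 CPM in all others (log2 2.18 ± 0.06). Tbx5, the T-box gene that initiates the forelimb, had 13.4 and 21.1 CPM, against 1.84 and 1.19 CPM (3.56 ± 0.30). Both genes were higher in members in each library, with no overlap between the summed levels of the classes. Hand2, a bHLH factor of the lateral plate that later patterns the posterior limb bud, had 88.1 and 137 CPM in members, against 33.6 and 39.0 CPM (1.64 ± 0.09), and its neighbouring noncoding gene Hand2os1 had 35.8 and 40.9 CPM, against 12.2 and 9.0 CPM (1.90 ± 0.16).

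Of 15696 genes tested, 607 (3.87%) were higher and 1082 (6.89%) lower in members. Of the 15 listed somatic lateral plate and limb-field factors, 11 were higher and none lower, with a median log2 of 0.82 beside -0.04 over all genes. The 11 were Alx1, Alx4, Fgf10, Irx3, Irx5, Msx1, Msx2, Pkdcc, Prrx2, Tbx3 and Twist1. Irx3, an Iroquois homeobox gene of limb progenitors, had 111 and 141 CPM in members, against 32.0 and 44.4 CPM (1.72 ± 0.09), and Prrx2, the paralogue of Prrx1, had 56.2 and 87.4 CPM, against 29.4 and 27.3 CPM (1.37 ± 0.11). Msx1, a homeobox target of BMP signals, differed less, with 349 and 284 CPM in members, against 255 and 180 CPM (0.56 ± 0.05). The secreted limb outgrowth factor Fgf10 had 15.4 and 16.0 CPM, against 5.76 and 5.97 CPM (1.42 ± 0.23). The largest rises by the naming rule included those of Lhx1 (48.8 and 48.1 CPM in members, against 9.51 and 8.07), Scube1, a secreted EGF-repeat protein (24.4 and 46.0, against 6.53 and 9.38), and Ndnf, a secreted glycoprotein (90.6 and 98.1, against 21.1 and 24.1). The integrin gene Itga9, the fibrillar collagen gene Col3a1 and Lsp1 complete the 10, with log2 changes of 1.63 to 1.84.

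All 11 presomitic mesoderm markers were lower, with a median log2 of -2.56. The Notch ligand Dll1 had 9.45 and 9.89 CPM in members, against 69.2 and 69.7 CPM in all others (-2.84 ± 0.15), and Msgn1, a bHLH factor of presomitic mesoderm, had 7.96 and 7.49 CPM, against 51.8 and 56.1 CPM (-2.83 ± 0.17). Of 12 somite markers tested, 8 were lower and none higher, with Foxc2 at 5.47 and 4.81 CPM in members, against 36.6 and 47.4 CPM. Of 12 neural tube markers 9 were lower, of 12 caudal epiblast markers 11, and of 15 endothelial markers 13, with none higher in any of these lists. The remaining genes named by the rule on this side were Tbx6, Dll3, Sox3, Hes3, Zic2, Nrarp and Foxb1, of presomitic, neural and caudal cells, with log2 changes of -2.78 to -2.30. The endothelial and somite lists sit beside limits of the rule on other genes of the same cells, so their direction is partly set by the choice of members.

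Some markers of other tissues had no UMI in members, and others were well above that. Cer1, Ripply2, Uncx, Meox2, Pax1, Nkx3-2, Nkx2-5, Olig3, Gata1 and Klf1 had 0 UMIs in both libraries. With a floor of 3 UMIs over both libraries, 0.522 CPM, Cer1 and Uncx were at least 14.0-fold and 10.6-fold lower than in all others. The bounds were 8.65-fold for Ripply2, 6.84-fold for Meox2, 5.17-fold for Klf1 and 2.30-fold for Olig3. Pax1 had 0.402 CPM in all others, under the floor, so its 0 shows no difference. No bound is given for Nkx3-2, Nkx2-5 and Gata1. Haemoglobin Hba-x had 0.498 and 24.6 CPM in members, against 0.122 and 3606 CPM in all others, so nearly all blood RNA was in replicate 2. The 10 gut endoderm markers summed to 275 and 73.2 CPM in members, against 534 and 253 CPM, the 12 surface ectoderm markers to 876 and 405 CPM, against 1383 and 770 CPM, and the 12 caudal epiblast markers to 539 and 385 CPM, against 966 and 814 CPM. Epcam, which mesenchyme lacks, reached 2 or more UMIs in 10 of the 97 members and 17 of the 243, and 2 or more Epcam UMIs were taken as a mark of epithelial RNA below. This fit had 1 residual degree of freedom and a spread common to all genes, which makes its p-values small, and DESeq2 called 200 genes higher and 291 lower. Without the library as a block edgeR called 2 genes higher and 6 lower.

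The comparison with splanchnic-gate cells sets members beside cells chosen by Foxf1 without Prrx1, which were not gut-side cells alone. Presomitic Msgn1 stood at 62.7 and 42.9 CPM in them, against 51.8 and 56.1 CPM in all other kept barcodes. They also held 542 UMIs of the allantois and amnion marker Tdo2, and blood RNA in replicate 2. How far such RNA accounts for genes lower in members was not tested. Genes higher in members included Twist1, Irx3, Irx5, Tbx5, 7 of 15 genes of the retinoic acid pathway and the Hox cofactor gene Meis1. Genes lower in members included Hlx, Foxf2, the Hedgehog receptor gene Ptch1, the keratin genes Krt8 and Krt18, 10 of 30 extracellular matrix genes and 6 of 12 genes of the most posterior Hox groups. Of 13295 genes tested, 194 (1.46%) were higher and 305 (2.29%) lower in members, and the libraries agreed in direction for 494 of those 499 calls.

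Of 14 somatic lateral plate and limb-field factors tested, 5 were higher (Twist1, Irx3, Irx5, Alx1 and Prrx2) and 1 lower (Twist2), with a median log2 of 0.45 beside -0.02 over all genes. Twist1 had 436 and 322 CPM in members, against 90.3 and 48.1 CPM in splanchnic-gate cells (log2 2.45 ± 0.23, edgeR adjusted p = 0.00087). Irx3 had 111 and 141 CPM, against 33.8 and 33.5 CPM (1.88 ± 0.10, edgeR adjusted p = 3.6e-05), and was also called without the block. Both genes were higher in members in each library, with no overlap between the summed levels of the classes. Irx5, which lies beside Irx3 in 1 gene cluster, had 14.9 and 36.9 CPM, against 3.87 and 5.94 CPM (2.37 ± 0.27). Alx1, a homeobox gene of mesenchyme, had 17.9 and 31.5 CPM, against 6.71 and 5.32 CPM (2.03 ± 0.44), and Prrx2 had 56.2 and 87.4 CPM, against 28.5 and 23.4 CPM (1.48 ± 0.19). Twist2, the close relative of Twist1, ran the other way with 3.98 and 14.7 CPM in members, against 12.0 and 31.9 CPM (-1.35 ± 0.29), a call lost with thinned counts and with at least 3 Prrx1 UMIs.

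**Figure D2:**
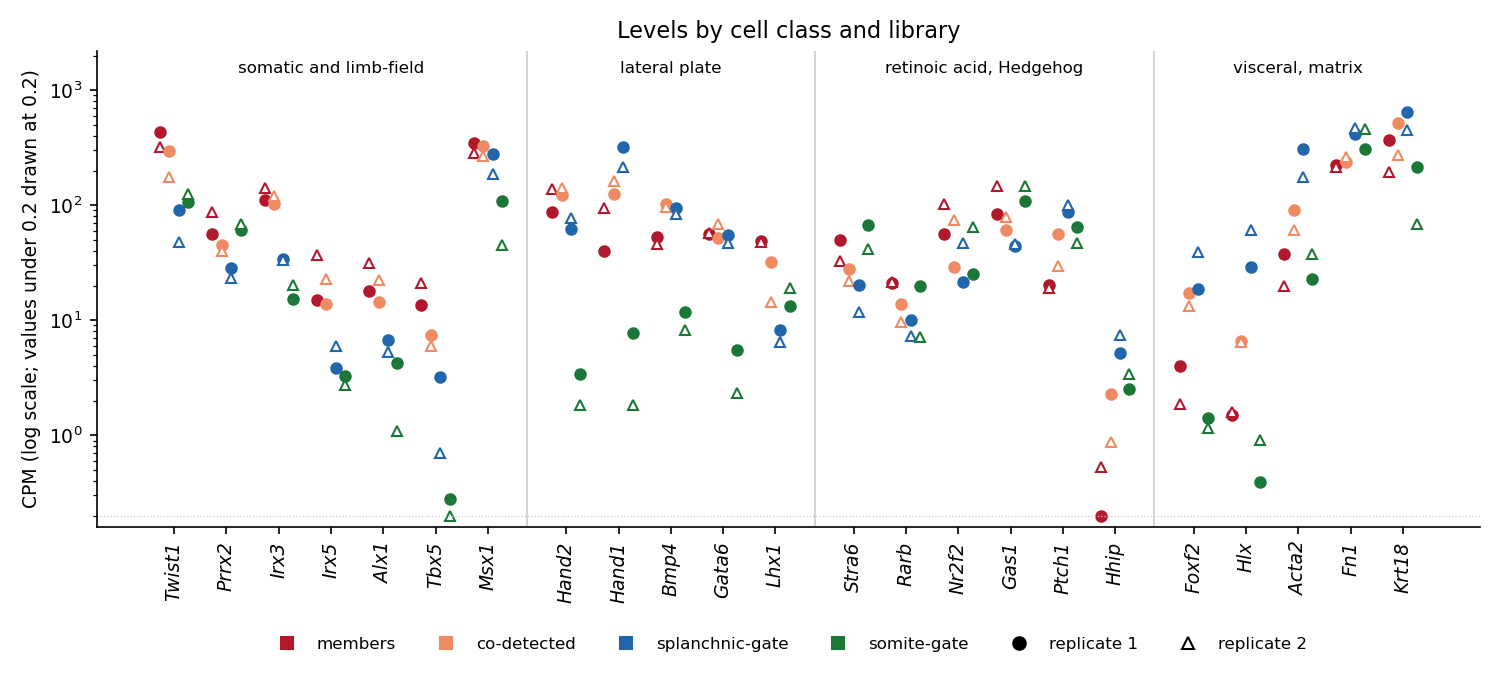
Level of each gene in CPM on a log axis, in members, co-detected, splanchnic-gate and somite-gate cells (colours, left to right within a gene), with filled circles for replicate 1 and open triangles for replicate 2. Twist1 stands at 436 and 322 CPM in members, against 90.3 and 48.1 CPM in splanchnic-gate cells, and Hlx at 1.49 and 1.60 CPM, against 29.0 and 60.7 CPM; co-detected cells lie between the classes for both.

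Limb-field genes went both ways, and those given here are examples rather than a full count. Tbx5, Isl1, Sall1 and Sall4 are not in the list of somatic lateral plate and limb-field factors counted above. The counts of that list therefore do not cover them. Tbx5 was higher, with 13.4 and 21.1 CPM in members, against 3.24 and 0.703 CPM in splanchnic-gate cells (3.08 ± 0.52, edgeR adjusted p = 0.013). It was found in few cells. In counts thinned to 5000 UMIs, 7 of 93 members (7.53%, interval 3.08 to 14.9) and 23 of 237 (9.70%, 6.25 to 14.2) had a Tbx5 UMI, against 15 of 1260 and 2 of 921 splanchnic-gate cells, and 0 of 236 and 1 of 298 endothelial-gate cells (at least 2 UMIs of Cdh5 and Pecam1, with neither Prrx1 nor Foxf1). The median depth of members was 19916 and 14822 UMIs before thinning. Genes that were lower in members included Isl1, a LIM homeobox gene upstream of the hindlimb (5.97 and 10.4 CPM in members, against 15.0 and 32.9), and the zinc finger genes Sall1 and Sall4 (Sall4 98.0 and 129, against 172 and 263). Isl1 is also among the splanchnic and heart field genes counted below. Pitx1, the paired-type homeobox gene of the hindlimb, had 10.9 and 90.4 CPM in members, against 67.2 and 171 CPM, and was not called.

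Twist1 was also detected in most members. In thinned counts 66 of 93 (71.0%, interval 60.6 to 79.9) and 153 of 237 (64.6%, 58.1 to 70.6) members had a Twist1 UMI, against 293 of 1260 (23.3%) and 127 of 921 (13.8%) splanchnic-gate cells. Endothelial-gate cells, taken as the background, had one in 49 of 236 (20.8%) and 31 of 298 (10.4%). The splanchnic-gate shares were thus close to the background, whereas those of members were not. Irx3 followed, with 37 of 93 (39.8%) and 105 of 237 (44.3%) members, against 170 of 1260 (13.5%) and 130 of 921 (14.1%) splanchnic-gate cells and 14 of 236 (5.93%) and 36 of 298 (12.1%) endothelial-gate cells. Both genes were found together in 33 of 93 and 76 of 237 members. Neither was found in 23 and 55 members.

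Of the 10 genes with the largest rises over splanchnic-gate cells, Lhx1 led, with 48.8 and 48.1 CPM in members, against 8.21 and 6.41 CPM (2.70 ± 0.34, edgeR adjusted p = 0.0034). Scube1 had 24.4 and 46.0 CPM, against 4.82 and 6.25 CPM (2.60 ± 0.18), and Lix1, a gene named for its expression in the chick limb, had 77.6 and 124 CPM, against 26.4 and 24.9 CPM (1.97 ± 0.16). Ndnf, Itga9, the transcription cofactor Dach1 and Clmn, an actin-binding membrane protein, rose by log2 values of 1.48 to 2.21. Lhx1 was the 1 gene of 8 tested intermediate mesoderm markers that was higher, and Gata3 was the 1 that was lower, so the list as a whole did not move together.

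Of 12 splanchnic mesoderm and heart field genes tested, 3 were lower in members (Foxf2, Isl1 and Tbx20) and 1 higher (Hand2), with a median log2 of -0.59, and all 14 genes summed to 236 and 266 CPM in members, against 262 and 275 CPM in splanchnic-gate cells. Hlx, a homeobox gene of gut and liver mesenchyme, had 1.49 and 1.60 CPM in members, against 29.0 and 60.7 CPM in splanchnic-gate cells (-4.76 ± 0.39, edgeR adjusted p = 0.00032). Fendrr, a noncoding gene that neighbours Foxf1, had 1.99 and 4.54 CPM, against 24.4 and 43.2 CPM (-3.26 ± 0.23), and Foxf2, the relative of Foxf1, had 3.98 and 1.87 CPM, against 18.6 and 39.6 CPM (-3.38 ± 0.53). Members lay under 5 CPM for all 3 genes in both libraries. Acta2, the smooth muscle actin, had 37.8 and 19.8 CPM in members, against 307 and 174 CPM (-3.12 ± 0.37), and Hsd11b2, a glucocorticoid-inactivating enzyme, had 9.95 and 12.8 CPM, against 99.7 and 151 CPM (-3.40 ± 0.30). The remaining genes named on this side were Tmem158, Msgn1, Adamts9, Mid1ip1, Ptch1 and the apelin receptor gene Aplnr, with log2 changes of -3.08 to -2.21. Foxf1 is a limit of the rule and Fendrr shares its locus, so the fall of Fendrr is close to the choice of members. Of 11 presomitic markers, 6 were lower in members and none higher, with Msgn1 at 7.96 and 7.49 CPM, against 62.7 and 42.9 CPM. Of 7 blood markers 4 were lower, and these calls rest on replicate 2, where Hba-x had 24.6 CPM in members, against 1242 CPM in splanchnic-gate cells.

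**Figure D3:**
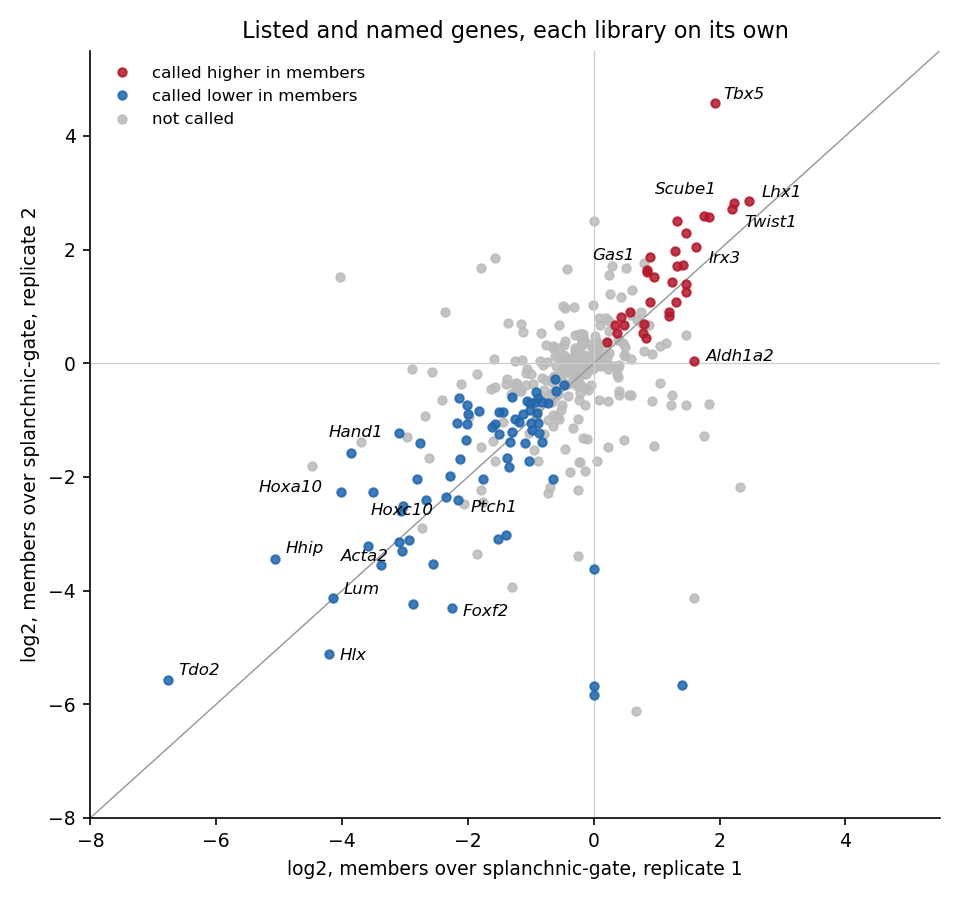
Log2 of the level in members over that in splanchnic-gate cells, replicate 1 on the horizontal and replicate 2 on the vertical axis, for listed and named genes; red and blue mark genes called higher and lower, grey genes not called, and the line marks equal values. Lhx1 (2.47 and 2.85) and Irx3 (1.63 and 2.05) lie near the line, whereas Aldh1a2 (1.59 and 0.04) and Hand1 (-3.09 and -1.22) lie off it.

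The lateral plate genes shared by both layers were not uniform. Hand2 was higher in members, with 88.1 and 137 CPM, against 61.6 and 77.3 CPM in splanchnic-gate cells (0.71 ± 0.16), a call that DESeq2 did not make. Hand1, its paralogue, was lower, with 39.8 and 93.8 CPM, against 322 and 216 CPM (-1.90 ± 0.38), and the size differed between libraries, with log2 values of -3.09 and -1.22; DESeq2 did not call it either. Bmp4, a ligand that induces lateral mesoderm, was lower with 52.7 and 46.0 CPM, against 93.9 and 83.1 CPM (-0.85 ± 0.10). Of the 12 genes of this list, Hand2 was higher and 5 were lower (Hand1, Bmp4, Ahnak, Mab21l2 and Tbx20). Gata6 had 56.7 and 57.2 CPM in members, against 54.7 and 46.6 CPM, and was not called. Hand1 was found in 10 of 93 (10.8%) and 57 of 237 (24.1%) members in thinned counts, against 663 of 1260 (52.6%) and 440 of 921 (47.8%) splanchnic-gate cells and 16 of 236 (6.78%) and 7 of 298 (2.35%) endothelial-gate cells. The share of members in replicate 1 was within counting error of this background.

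Retinoic acid is made from vitamin A by a chain of enzymes and acts through nuclear receptors. Of 15 genes of this pathway tested, 7 were higher in members and 1 lower, with a median log2 of 1.06 beside -0.02 over all genes. Stra6, the retinol uptake receptor, had 50.3 and 32.9 CPM in members, against 20.1 and 11.9 CPM in splanchnic-gate cells (1.36 ± 0.13, edgeR adjusted p = 0.00089). The enzyme genes Rdh10 (16.9 and 17.6 CPM, against 8.84 and 5.63) and Dhrs3 (10.4 and 9.62, against 3.59 and 2.74) were higher. So was the receptor Rarb, itself a known direct target (20.9 and 21.7, against 10.1 and 7.35). Retinoic acid was not measured, so these rises do not show that more of it was made. The orphan receptor Nr2f2 had 56.2 and 102 CPM, against 21.4 and 47.1 CPM (1.18 ± 0.12), and Nr2f1 had 17.9 and 18.7 CPM, against 7.30 and 9.85 CPM (1.06 ± 0.21). Aldh1a2, the main enzyme that makes retinoic acid in the trunk, rested on replicate 1, with 122 and 11.2 CPM in members, against 38.5 and 10.8 CPM. Its log2 value was 1.59 in replicate 1 and 0.04 in replicate 2, and DESeq2 did not call it. Rarg was lower, with 57.7 and 57.2 CPM in members, against 83.9 and 68.2 CPM, a call lost in 7 of the alternatives.

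Hedgehog ligands bind Ptch1 and release a cascade that ends in the Gli factors. Ptch1, the receptor and a direct target, had 20.4 and 19.2 CPM in members, against 87.0 and 101 CPM in splanchnic-gate cells (-2.23 ± 0.29, edgeR adjusted p = 0.0039). Hhip, a secreted inhibitor and target, had 2 UMIs in all members, and was 17.1-fold higher in splanchnic-gate cells (counting interval 4.69 to 142). Gas1, a co-receptor that Hedgehog signals are known to repress, was higher in members, with 83.1 and 146 CPM, against 43.8 and 46.4 CPM (1.32 ± 0.14). Gli3, the main repressor of the pathway, was higher by a small margin, with 70.2 and 95.7 CPM, against 57.1 and 72.5 CPM (0.34 ± 0.08), and DESeq2 did not call it. Of the 12 genes of the list that were tested these 4 were called, and the median log2 was -0.03, so the list as a whole was centred like all genes.

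Of 30 extracellular matrix genes, 2 were higher (Col26a1 and Hapln1), 10 lower and 18 not called, with a median log2 of -0.53. Fn1, fibronectin, had 224 and 213 CPM in members, against 420 and 471 CPM in splanchnic-gate cells (-1.05 ± 0.13), and Lama4, a laminin chain, had 1.49 and 1.87 CPM, against 13 and 12.0 CPM (-2.75 ± 0.31). Lum, lumican, had 0.995 and 0.535 CPM, against 19.3 and 12.0 CPM (-4.10 ± 0.46). The simple-epithelium keratin genes Krt8 and Krt18 had 329 and 150, and 370 and 194 CPM in members, against 662 and 393, and 641 and 448 CPM. Vim, the mesenchymal intermediate filament, was lower too, with 266 and 191 CPM, against 514 and 618 CPM (-1.34 ± 0.17). Of 9 allantois and amnion markers tested 5 were lower and none higher. Tdo2 had 0 UMIs in members, so its level was at least 27.3-fold lower in members than in splanchnic-gate cells, and Wnt5a had 49.3 and 71.1 CPM, against 133 and 166 CPM (-1.33 ± 0.09).

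None of 16 DNA replication and none of 16 mitosis genes was called by edgeR or DESeq2, which is near the share called over all genes, and 4 and 3 of them had an unadjusted p under 0.05, beside 2360 of all 13295 genes. Meis1, a TALE homeobox cofactor of Hox proteins, was higher, with 67.2 and 87.4 CPM in members, against 22.9 and 36.0 CPM. Of 12 imprinted genes, Mest was higher and H19 and Plagl1 were lower. Mest was abundant in both classes, with 3529 and 3584 CPM in members, against 2388 and 2201 CPM. Without the block edgeR called 1 gene higher and 2 lower in this comparison, and with thinned counts 96 and 175.

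Hox genes are switched on in the order of their place in the clusters, and their paralogue numbers mark position along the body, with 9 to 13 the most posterior. Of 12 genes of groups 9 to 13 tested, 6 were lower in members than in splanchnic-gate cells (Hoxa9, Hoxa10, Hoxc9, Hoxc10, Hoxd10 and Hoxd11) and none was higher, with a median log2 of -1.77. Hoxc10 had 1.49 and 22.5 CPM in members, against 7.90 and 113 CPM (-2.48 ± 0.34, edgeR adjusted p = 0.0049), and Hoxa10 had 0.498 and 9.89 CPM, against 10.0 and 47.5 CPM (-2.54 ± 0.54). Hoxc9 had 9.45 and 58.0 CPM, against 40.8 and 119 CPM (-1.37 ± 0.22). For these genes members were lower within each library, yet replicate 2 members exceeded replicate 1 splanchnic-gate cells for Hoxc9 and Hoxc10, so the classes overlap across libraries. Hoxb9, the most abundant gene of these groups, did not follow: it had 42.8 and 221 CPM in members, against 104 and 134 CPM, and was not called.

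Of 8 genes of groups 6 to 8, Hoxc6, Hoxc8 and Hoxd8 were lower and none higher, and of 7 genes of groups 4 and 5 none was called by edgeR or DESeq2 (1 at an unadjusted p under 0.05). Hoxc8 had 37.3 and 109 CPM in members, against 125 and 193 CPM (-1.20 ± 0.18). Cdx4, a homeobox gene upstream of posterior Hox genes, had 97.5 and 142 CPM in members, against 275 and 295 CPM (-1.23 ± 0.17).

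**Figure D4:**
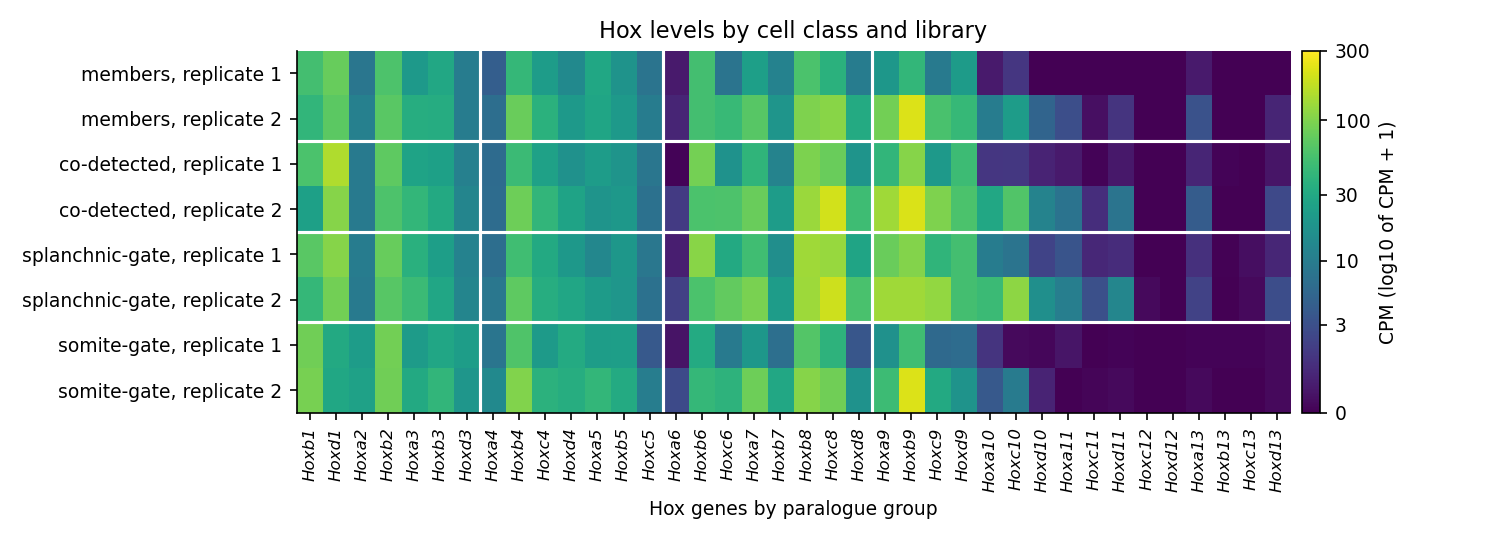
Level of Hox genes, ordered by paralogue group, in 4 cell classes by library (rows); colour is log10 of CPM + 1, with CPM on the colour bar, and white lines divide classes and groups 1 to 3, 4 and 5, 6 to 8, and 9 to 13. Hoxc10 is darker in members than in splanchnic-gate cells within each library (1.49 and 22.5 CPM, against 7.90 and 113 CPM), and replicate 2 is brighter than replicate 1 for Hoxb9 in every class.

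Members of replicate 2 had more RNA of posterior Hox genes than members of replicate 1. Groups 9 to 13 summed to 96.0 and 459 CPM in members, against 308 and 648 CPM in splanchnic-gate cells, 225 and 633 CPM in co-detected cells and 83.5 and 335 CPM in somite-gate cells. These 4 classes were all higher in replicate 2, with 1 library on each side and no test. Pitx1 was also higher in members of replicate 2, with 10.9 and 90.4 CPM. Aldh1a2 ran the other way, with 122 and 11.2 CPM, and so did Osr1, a zinc finger gene of lateral and intermediate mesoderm, 88.1 and 27.5 CPM.

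Co-detected cells, which carry Prrx1 and Foxf1 together, differed from members in few called genes. Of the same 13295 genes, 20 (0.15%) were higher and 15 (0.113%) lower in members. In simulated counts, where every gene had the same fixed spread, this comparison recovered 14% of 2-fold and 76% of 4-fold changes. That spread was not estimated from these data, so the shares need not hold for the real counts. Genes that were not called may still differ. The somatic genes lay in between: Twist1 had 436 and 322 CPM in members, against 297 and 174 CPM in co-detected cells, and Irx3 had 111 and 141 CPM, against 101 and 119 CPM, and neither was called. None of the 14 somatic lateral plate and limb-field factors was called by edgeR or DESeq2, with 4 at an unadjusted p under 0.05. Of the 15 genes that were lower, the largest changes were those of the haemoglobins Hba-x, Hbb-bh1 and Hbb-y, with log2 values of -4.66 to -4.50 that rest on replicate 2 (Hba-x 24.6 CPM in members there, against 631 CPM), and then Fendrr of the Foxf1 locus, with 1.99 and 4.54 CPM in members, against 15.2 and 24.7 CPM. Bmp4 had 52.7 and 46.0 CPM in members, against 102 and 95.6 CPM (-1.02 ± 0.10, edgeR adjusted p = 0.0048), Frzb, a secreted Wnt inhibitor, had 17.4 and 22.5 CPM, against 45.5 and 56.0 CPM (-1.34 ± 0.12), and Cdx4 had 97.5 and 142 CPM, against 242 and 306 CPM (-1.18 ± 0.17). Wnt5a, Hoxd1, Hoxaas3, Dusp4, Csrp2, Ppp1r14a, Pmp22 and Spin2c were lower as well. Scube1 (24.4 and 46.0 CPM in members, against 12.1 and 18.6) and Lix1 (77.6 and 124, against 47.2 and 50.9) were higher, and neither was called with at least 3 Prrx1 UMIs.

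Many of the 20 genes higher in members than in co-detected cells were epithelial or endoderm genes. They included Fabp1, Apoc2, Lgals2, Amn, Crb3, Cldn4, Cldn6 and Esrp1. Some of these rested almost wholly on replicate 1. Apoc2 had 113 and 0 CPM in members, against 16.2 and 0 CPM, and Amn had 44.8 and 0.802 CPM, against 7.99 and 0.374 CPM. Rbp4, a retinol carrier of endoderm, had 190 and 25.1 CPM in members, against 46.3 and 4.86 CPM in co-detected cells, and Epcam had 69.7 and 28.3 CPM, against 27.9 and 12.6 CPM. Cells with at least 2 Epcam UMIs made up 10.3% and 7.0% of members, against 6.46% and 3.25% of co-detected cells. Without these cells Rbp4 fell to 3.57 and 5.79 CPM in members, against 16.9 and 5.08 CPM, and Epcam to 2.38 and 1.74 CPM, against 2.79 and 2.61 CPM, and 2 genes were higher and 17 lower in place of 20 and 15. The gut endoderm markers then summed to 26.1 and 8.68 CPM in members, against 24.9 and 11.5 CPM. Twist1 without these cells had 489 and 336 CPM in members, against 313 and 177 CPM. Fgf8, Cyp26a1, Nr2f1 and Sox9 were no longer called without the Epcam cells, with log2 values of 0.88 (Cyp26a1) to 1.70 (Sox9), against 1.01 and 1.93 for the same genes with all cells. Cldn6 was 1.29 with all cells and -0.73 without. Without the block no gene was called in either direction by edgeR, against 1101 at an unadjusted p under 0.05 with it and 39 higher and 29 lower by DESeq2.

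Against somite-gate cells, members had more lateral plate and imprinted genes and none of several somite genes. Of 13295 genes, 503 (3.78%) were higher and 542 (4.08%) lower. Hand2 had 88.1 and 137 CPM in members, against 3.42 and 1.83 CPM (5.23 ± 0.22, edgeR adjusted p = 2.7e-06), Hand2os1 had 35.8 and 40.9 CPM, against 1.12 and 0.833 CPM, and the netrin receptor gene Unc5c had 29.9 and 40.4 CPM, against 1.18 and 2.08 CPM. Col3a1 and Ndnf rose by log2 values of 4.08 ± 0.21 and 4.01 ± 0.15. Of 14 somatic factors tested, 9 were higher and none lower, with a median log2 of 2.16 beside -0.01 over all genes. Twist1 had 436 and 322 CPM in members, against 107 and 126 CPM, whereas Prrx2 had 56.2 and 87.4 CPM, against 61.3 and 68.5 CPM, and was not called. Of 12 imprinted genes 10 were higher and none lower.

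The somite and presomitic genes named by the rule had no UMI in members. Cer1, Pcdh8, Uncx, Ripply2 and Meox2 had 0 UMIs there, and their levels in members were at least 110-fold, 124-fold, 85.0-fold, 62.3-fold and 48.7-fold lower than in somite-gate cells, with a floor of 3 UMIs over both libraries. Of 12 somite markers tested 11 were lower, and all 11 presomitic markers. Tcf15 and Meox1 limit both classes, so these lists lie close to the rule. Without the block 89 genes were called higher and 90 lower.

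Members were not all alike. They were split on Hand1 in counts thinned to 5000 UMIs, which gave 10 members with and 83 without Hand1 in replicate 1, and 57 and 180 in replicate 2. Of 5344 genes tested, 22 (0.412%) were higher and 3 (0.0561%) lower in members with Hand1. With another thinning seed, 14 of the 22 and 1 of the 3 were called again. Keratin and imprinted genes were among those higher. Krt8 had 720 and 312 CPM in members with Hand1, against 243 and 93.3 CPM in members without (1.59 ± 0.20), and Krt18 had 580 and 396 CPM, against 265 and 130 CPM (1.38 ± 0.19). Pmp22, a membrane protein gene that was lower in members than in splanchnic-gate cells, had 500 and 109 CPM, against 86.7 and 25.6 CPM (2.14 ± 0.30). The zinc finger gene Gata6 (140 and 112 CPM, against 43.4 and 37.8) and the homeobox gene Msx2 (200 and 165, against 38.6 and 50.0) were higher in both libraries.

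Of 11 imprinted genes tested in this split, 5 were higher (Dlk1, Meg3, Peg3, Peg10 and Phlda2) and none lower, with a median log2 of 0.52 beside -0.02 over all genes. Phlda2, an imprinted gene known to limit placental growth, had 700 and 435 CPM in members with Hand1, against 241 and 103 CPM (1.80 ± 0.19), and Peg3 had 1140 and 1902 CPM, against 545 and 1002 CPM (0.93 ± 0.13). Igsf11, Tagln, C430049B03Rik and Tpd52l1 were the other genes named by rule, at 60.0 and 31.6, 120 and 35.1, 40.0 and 66.7, and 80.0 and 94.7 CPM with Hand1, against 2.41 and 3.33, 24.1 and 3.33, 14.5 and 8.89, and 33.7 and 16.7 CPM without. Crabp2, a retinoic acid binding protein, was lower, with 40.0 and 161 CPM, against 159 and 340 CPM (-1.13 ± 0.23), which rests on 2 and 46 UMIs with Hand1. Zmpste24 and Mvb12a, the other 2 lower genes, had 0 and 3 UMIs with Hand1. Twist1 had 560 and 456 CPM with Hand1, against 417 and 310 CPM without, and was not called. The group of replicate 1 holds 10 cells, so its values rest on few UMIs, and DESeq2 called 4 genes higher and none lower, against 297 at an unadjusted p under 0.05 in edgeR. Without the block edgeR called none in either direction.

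**Figure D5:**
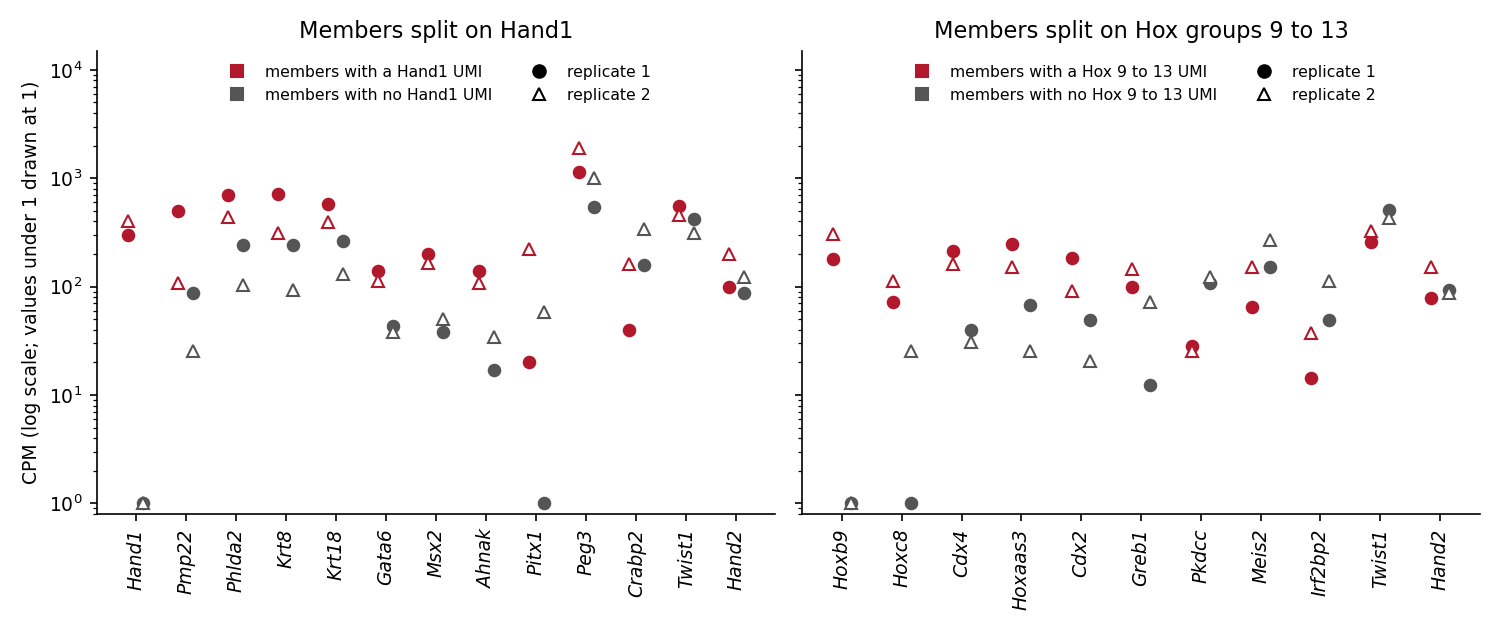
Level in CPM on a log axis of genes in members with (red) and without (grey) a Hand1 UMI, left, or a UMI of Hox groups 9 to 13, right, in thinned counts (filled circles replicate 1, open triangles replicate 2). Hand1 and Hoxb9 took part in the choice of the groups; Krt8 lies at 720 and 312 CPM with Hand1, against 243 and 93.3 CPM without, and Cdx4 at 214 and 162 CPM with posterior Hox, against 40.0 and 30.8 CPM without.

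The other split was on a UMI of Hox groups 9 to 13, found in 28 of 93 members of replicate 1 and in 198 of 237 of replicate 2. Of 4374 genes tested, 11 (0.251%) were higher and 5 (0.114%) lower in members with posterior Hox. With another thinning seed, 5 of the 11 and 1 of the 5 were called again. The caudal homeobox genes rose with it: Cdx4 had 214 and 162 CPM, against 40.0 and 30.8 CPM in members without (2.27 ± 0.32), and Cdx2 had 186 and 90.9 CPM, against 49.2 and 20.5 CPM (1.86 ± 0.36). Hoxc8 had 71.4 and 112 CPM, against 0 and 25.6 CPM (2.55 ± 0.46), and Hoxaas3, a noncoding gene of the HoxA cluster, had 250 and 151 CPM, against 67.7 and 25.6 CPM (2.0 ± 0.30). Greb1 had 100 and 146 CPM, against 12.3 and 71.8 CPM (1.47 ± 0.34). These genes were higher in both libraries.

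On the side without posterior Hox, Pkdcc, a secreted kinase needed for limb length, had 28.6 and 25.3 CPM in members with posterior Hox, against 108 and 123 CPM in members without (-1.99 ± 0.36). Meis2, a Hox cofactor of the trunk and proximal limb, had 64.3 and 151 CPM, against 151 and 267 CPM (-0.87 ± 0.23), and Irf2bp2 had 14.3 and 37.4 CPM, against 49.2 and 113 CPM. Ddx27 was lower as well, with 35.7 and 125 CPM, against 178 and 190 CPM. In replicate 1 the values with posterior Hox rest on 4 UMIs of Pkdcc, 9 of Meis2, 2 of Irf2bp2 and 5 of Ddx27. Ptn, the remaining gene called lower, ran opposite ways in the libraries, with log2 values of 0.40 and -1.67. Tbx5 had 1 and 18 UMIs with posterior Hox and 7 and 11 UMIs without, and it did not reach the filter on low counts. Hand1 and posterior Hox were found together in 2 of 93 and 51 of 237 members, and neither in 57 and 33. DESeq2 called no gene in this split and edgeR without the block none in either direction, against 251 at an unadjusted p under 0.05 with it, so these calls rest on the block and on the spread shared by all genes.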

How the data were processed

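The authors deposited raw counts, as UMIs per gene and barcode; the submitters' processing notes name Cell Ranger 6.1.1 and mm10. How barcodes were chosen for deposit was not stated. Members and gene lists were chosen with earlier results of these data known. UMIs were summed per class and library and fitted with edgeR 4.0.16 (TMM, filterByExpr, quasi-likelihood test, prior count 2, library as a block because both classes of a contrast come from 1 library), with Benjamini-Hochberg adjustment over all genes tested; members, co-detected, splanchnic-gate and somite-gate cells shared 1 fit. Gate, mitochondrial, Y-linked genes, Xist and split genes were left out of counts. Genes were named by largest change among called genes of 1 direction in both libraries with at least 20 CPM in the higher class (10 a side against all others and splanchnic-gate cells, 5 otherwise), beside listed genes. Alternatives were DESeq2 1.42.0, other scaling, filters, gates, thinning (seed 2) and single libraries. Doublets were called with Scrublet in scanpy 1.11.5. Exact (Clopper-Pearson) intervals and floors cover counting error only. The edgeR steps were tested on simulated data with a fixed spread for all genes, not estimated from these data. There they recovered 3% to 15% of 2-fold and 52% to 79% of 4-fold changes across the comparisons. These shares need not hold for the real counts. Some genes are not reported here.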

Additional observations from a re-analysis of the deposited data

Results flagged for a closer look

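A custom eGFP sequence, which no comparison used, had 1295 UMIs in replicate 1 and 548 in replicate 2 over all barcodes, of which members held 5 and 9, although the labels give both libraries as wild type. Of the barcodes under the mitochondrial minimum, which were not kept, 69 of 11204 in replicate 1 and 109 of 5166 in replicate 2 met the other limits of the rule. Their median was 9602 and 7795 UMIs, and Twist1 stood at 426 and 285 CPM in them, against 436 and 322 CPM in members. The 30 extracellular matrix genes summed to 363 and 181 CPM in them, against 1500 and 1452 CPM in members, and the 25 Wnt pathway genes to 913 and 719 CPM, against 1336 and 1215 CPM.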

How the results depend on the processing

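With edgeR and no replicate block, calls of genes higher and lower in members were 2 and 6 against all other kept barcodes, 1 and 2 against splanchnic-gate cells, 0 and 0 against co-detected cells and 89 and 90 against somite-gate cells, and 0 and 0 in both splits, so these counts rest on the block. DESeq2 gave 200 and 291 against all others, 39 and 29 against co-detected cells, 4 and 0 for Hand1 and 0 and 0 for posterior Hox. Thinned counts gave 210 and 422, 96 and 175 and 308 and 323 against all others, splanchnic-gate and somite-gate cells, and 12 higher than co-detected cells. With no filter on low counts, 349 and 876 were called against splanchnic-gate cells, 163 and 257 against co-detected cells, 966 lower than somite-gate cells, 10 and 1 for Hand1 and 2 lower for posterior Hox, and this setting put the median log2 of all genes at -0.16 against all other kept barcodes and at -0.14 in the Hand1 split, beside -0.04 and -0.02 with the filter. With at least 3 Prrx1 UMIs, 1 and 7 genes were called against co-detected cells. Without Epcam cells, an alternative chosen after seeing the data, 2 were higher than in co-detected cells. Another thinning seed gave 25 and 4 for Hand1, which included 14 of the 22 and 1 of the 3 calls of the first seed. For posterior Hox it gave 6 and 1, which included 5 of the 11 and 1 of the 5. The cause of these shifts was not tested.

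The member share, in replicates 1 and 2, was 3.05% and 5.95% with at least 1 Prrx1 UMI, 0.490% and 1.77% with at least 3, 1.72% and 4.54% with Foxf1 of at most 1, and 0.598% and 1.98% thinned. Twist1 was found in 86.6% and 79.4% of members with no thinning and in 59.6% and 49.6% at 3000 UMIs. Hand1 was found in 24.7% and 37.9% with no thinning and in 16.7% of replicate 2 at 3000 UMIs. Directions turned, against co-detected cells, for Rbp4 (-0.88), Epcam (-0.34) and Cldn6 (-0.73) without Epcam cells, for Cldn6 (-0.075) and Cyp26a1 (-0.73) with at least 3 Prrx1 UMIs, and for Mvb12a (0.32) in the Hand1 split with another seed. Over 170 gene values, 39 calls were lost with DESeq2 and 144 with no replicate block, and leaving out replicate 1 moved 21 and leaving out replicate 2 moved 53.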
